A study of Homo sapiens with 18 samples.

Results

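The S100 genes encode small calcium-binding proteins, and 10 of them (S100A2, S100A4, S100A6, S100A8, S100A9, S100A10, S100A11, S100A13, S100A14 and S100A16) were followed across polyA+ RNAseq libraries of human cells that had received mimics of MIR-28 family microRNAs. The genes were chosen by symbol, among the 16715 genes listed for either cell line. All 10 were listed and tested in MCF10A cells, and 7 were listed and tested in hTERT RPE-1 cells, where S100A8, S100A9 and S100A14 were not listed. All 10 genes lie on chromosome 1 between positions 151982915 and 153627505 of hg38, among them S100A11 at 152032506 to 152037004 and S100A16 at 153606886 to 153613137. S100A11 was included as a gene labelled as a microRNA target, and no binding measurement for it was used here.

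MCF10A is a non-tumorigenic human breast epithelial line, and hTERT RPE-1 is a human retinal pigment epithelial line kept dividing by telomerase. Each line was transfected at 30 nM for 72 h with a non-targeting siRNA (siNT), with a mimic of hsa-miR-28-5p (miR-28) or with one of the related hsa-miR-708-5p (miR-708), with 3 libraries in each of the 6 groups, 18 in all. The siNT cells also received a small RNA, so cells without any transfection were not among the groups, and a mimic at this dose is an overexpression and not the cell's own level of the microRNA. The comparisons ask how each mimic changed the transcripts against siNT, whether the mimics differed from each other, and whether the lines responded differently.

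S100 proteins pair into dimers, and each monomer carries a pair of calcium-binding loops called EF-hands. On binding calcium most of them open a surface that grips a target protein, and annexins, cytoskeletal proteins and cell surface receptors are among the targets. Several are secreted, and S100A8 with S100A9 forms calprotectin, a metal-binding complex of neutrophils and of stressed epithelia. Most of the genes lie together on chromosome 1 beside the genes of the epidermal differentiation complex, which encode proteins of the outer skin. A microRNA pairs through its seed, bases 2 to 8, with matching letters in a transcript, and such pairing usually lowers the transcript or its translation.

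The study describes both microRNAs as members of one family that have the same seed. The mature hsa-miR-708-5p sequence is shown because its seed defines the letters searched for in the S100 transcripts. RefSeq places it on GRCh38.p14 at chr11:79402077-79402099 on the minus strand, and the capitals mark the seed.
hsa-miR-708-5p: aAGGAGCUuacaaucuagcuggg

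The transcripts of all 10 genes were searched for GCTCCT, the reverse complement of seed bases 2 to 7, and for the longer AGCTCCT, the reverse complement of all seed bases. The search read the transcript strand only, in 1 annotated transcript a gene (GENCODE v44, hg38), and every AGCTCCT also holds a GCTCCT. S100A16 was the only member with an AGCTCCT in its 3′ UTR, which is 648 bases long. S100A4, S100A10 and S100A14 each held 1 GCTCCT there without the extra base, and S100A14 also held an AGCTCCT in its 5′ UTR. S100A9 held 1 GCTCCT in its 5′ UTR. No member held a match in its coding sequence, and S100A2, S100A6, S100A8, S100A13 and the 563-base S100A11 transcript held none anywhere. A 3′ UTR match of at least 6 letters was present in 4 of the 10 genes, against 35.7% of the genes tested in MCF10A that had an annotated transcript, and a match of at least 7 letters in 1 of 10, against 18.7%. Matches of at least 7 letters here include GCTCCTA as well as AGCTCCT, and no member held a GCTCCTA. The 3′ UTRs of the members were short, 71 to 648 bases, against a median of 1349 bases over those genes. The 3′ UTR matches are shown with 11 or 10 bases before them, from hg38 chromosome 1, with the matching letters in capitals. All 4 genes are transcribed from the minus strand, and each match lies in the last exon.
S100A16 chr1:153607330-153607336: ggggggtctcAGCTCCTggagtcgcagg
S100A4 chr1:153543673-153543678: tttccaccctgGCTCCTtcagacacgtg
S100A10 chr1:151983140-151983145: atgagcagttcGCTCCTccctgataaga
S100A14 chr1:153614424-153614429: ctctgccccagGCTCCTcctagactctg

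**Figure D1:**
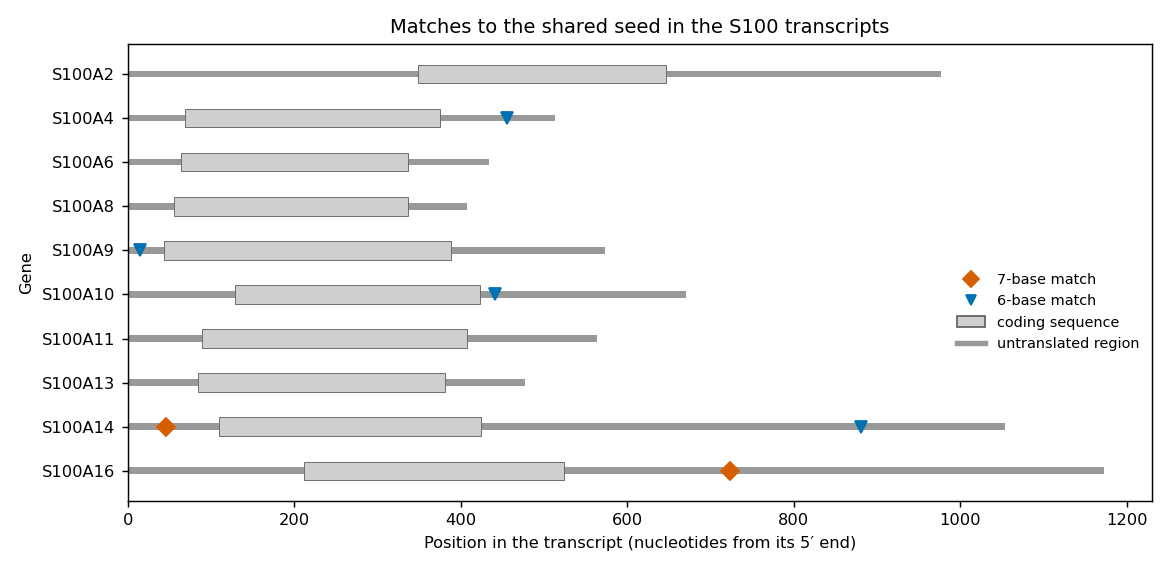
Seed matches along the annotated transcript of each of the 10 S100 genes, drawn to scale in nucleotides from the 5′ end, with the coding sequence as a thick bar and the untranslated regions as a thin one. The single 7-base match in a 3′ UTR is that of S100A16, S100A14 has one in its 5′ UTR, and S100A11 carries none.

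Values are reads divided by a library's size factor, set separately for each line, so levels were not compared between the lines. Estimated depth, in units of 1000000 reads, was 19.4 to 31.7 a library in MCF10A and 23.8 to 40.3 in RPE-1, and a count of 3 reads corresponds to a value of 2.36 to 4.41. Neither table holds a value of 0, so a gene that is not listed may have been dropped for being low. The MCF10A libraries carried all 8 basal breast markers, with a median of 59604 for KRT5. The RPE-1 libraries carried MITF (median 1310) and OTX2 (median 715), while RPE65, TYR and TTR were not listed and RLBP1 and LRAT did not pass 15.3 in any library. MCF10A itself listed 5 of the 9 retinal pigment epithelial markers, with medians of 1064 for LRAT and 1016 for BEST1, so that list does not mark RPE-1 alone. In bulk RNA, fewer cells of a type and less RNA per cell cannot be told apart.

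In siNT-treated MCF10A cells the S100 genes were among the most abundant transcripts. Per kilobase of transcript, S100A6 was highest at 65383 ± 6766 (SD, n = 3), rank 8 of 12963 genes with an annotated length. S100A9 followed at 63165 ± 35107 and S100A8 at 58721 ± 35228, and the library ranges of these 3 genes overlapped. S100A11 came next at 37177 ± 1979 per kilobase and S100A10 at 33050 ± 2826, also with overlapping ranges. S100A2 stood at 22856 ± 1146 and S100A14 at 19852 ± 1158, whose ranges did not overlap. S100A16 was at 7667 ± 232, S100A13 at 3086 ± 454 and S100A4 lowest at 1855 ± 470, rank 913. In siNT-treated RPE-1 cells S100A6 was again the first of the listed members, at 17140 ± 1884 per kilobase and rank 74 of 12764 genes, ahead of S100A11 at 8678 ± 580 and S100A10 at 7421 ± 976. S100A2 stood at 157 ± 11.5 per kilobase (rank 7569) and S100A4 at 49.7 ± 3.71 (rank 10116), so both lay in the lower part of that table.

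**Figure D2:**
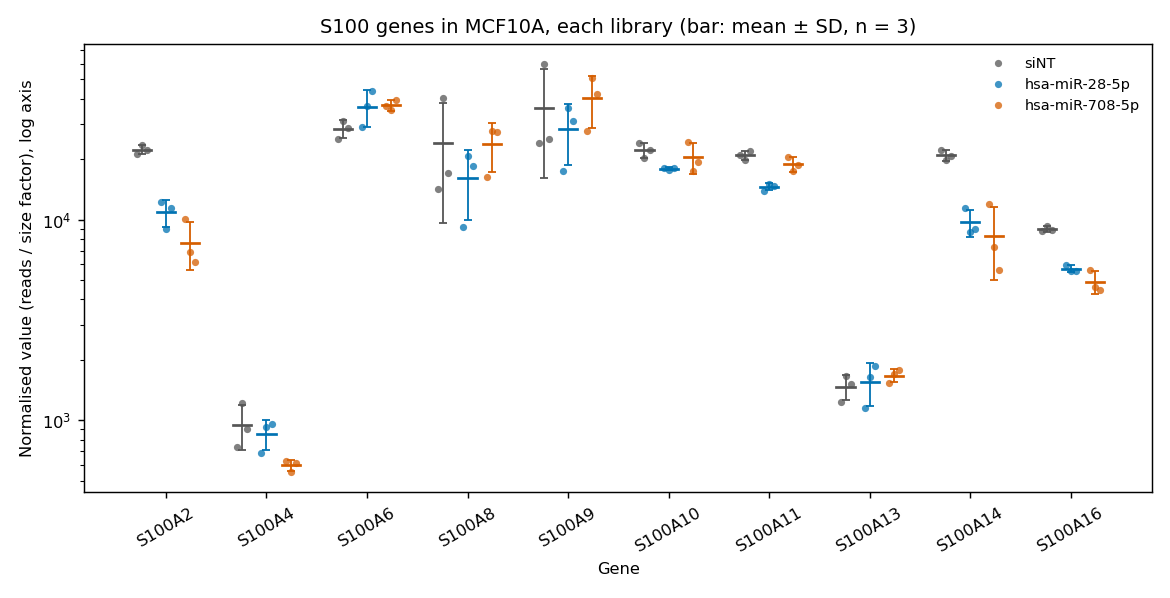
Normalized value of each of the 10 S100 genes in the 9 MCF10A libraries on a log axis, colored by group, with the mean ± SD of 3 libraries. The mimic libraries of S100A2, S100A14 and S100A16 lie below all siNT libraries, while S100A8 and S100A9 spread widely within siNT.

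With either mimic, the members called by limma (adjusted p under 0.05 over all genes tested) were all lower than in siNT. In MCF10A, 4 of 10 fell with miR-28 (S100A2, S100A11, S100A14 and S100A16), against 22.7% of all genes called, with 1772 of the 14726 genes called lower. With miR-708, 4 of 10 fell (S100A2, S100A4, S100A14 and S100A16), against 32.8% called and 17.3% called lower. In RPE-1, 2 of 7 fell with miR-28 (S100A2 and S100A16), against 46.8% called and 23.5% called lower. With miR-708, 3 of 7 fell (S100A10, S100A13 and S100A16), against 62.1% called and 31.2% called lower. In RPE-1 these counts lay below the shares called in either direction and near those called lower, so they are not a result about the members. The MCF10A counts lay above the shares called lower, but that of miR-708 was near the share called in either direction. With the replicate block 4 fell with miR-28, and 4 fell and 1 rose with miR-708, against 29.9% and 39.5% called. With 10 genes tested, the MCF10A counts are not read as a result about the members either. All siNT libraries stood on one side of all mimic libraries for 5 of 10 members with miR-28 in MCF10A, against 41.8% of all genes, and for 5 of 10 with miR-708, against 46.6%. In RPE-1 this was so for 4 of 7 members with miR-28, against 54.4%, and for 3 of 7 with miR-708, against 69.2%. Members called lower with both mimics were S100A2, S100A14 and S100A16 in MCF10A, against 9.81% of all genes, and S100A16 in RPE-1, against 20.8%. The median log2 fold change of the members was -0.40 and -0.14 in MCF10A and -0.32 and -0.43 in RPE-1, for miR-28 and miR-708 in turn, and the median of all genes tested lay within 0.01 of 0 in each. Scaling each library to the same total moved the median of all genes by up to 0.32, in RPE-1 with miR-708. The share of called genes that were higher then went from 47.1% to 66.1% and from 47.3% to 67.6% in MCF10A, and from 49.9% to 59.4% and from 49.7% to 71.8% in RPE-1. Under that scaling miR-708 raised S100A6 in both lines (0.54 in MCF10A, adjusted p = 0.0219), so that 1 member rose and 4 fell in MCF10A, and 1 rose and 1 fell in RPE-1.

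S100A16, a widely expressed member with an atypical EF-hand, was the only member called in all 4 comparisons with siNT, which 5.67% of the genes tested in both lines were in the lower direction. In MCF10A its values were 8816, 9300 and 8842 with siNT, 5954, 5565 and 5555 with miR-28, and 5608, 4618 and 4472 with miR-708. No mimic library reached the lowest siNT library. Its level fell to 63.3% of siNT with miR-28 (log2 fold change -0.66 ± 0.10 SE, adjusted p = 0.00159) and to 54.3% with miR-708 (-0.88 ± 0.10, adjusted p = 0.000137). In RPE-1 its values were 4824, 4756 and 4312 with siNT, 1998, 2269 and 1814 with miR-28, and 2269, 2406 and 2382 with miR-708. Here every mimic library lay far below siNT, at 43.7% with miR-28 (-1.20 ± 0.09, adjusted p = 6.37e-06) and 50.9% with miR-708 (-0.98 ± 0.09, adjusted p = 9.98e-06). These 4 calls held under all 17 alternative settings tried for each.

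S100A2, an epithelial member found in the nucleus and known to bind p53, was the member that fell furthest with miR-708 in MCF10A. The siNT libraries read 21251, 23486 and 22256, the miR-28 libraries 12247, 8994 and 11428, and the miR-708 libraries 10037, 6894 and 6124. Both mimic groups lay wholly below siNT. It fell to 48.4% with miR-28 (log2 fold change -1.05 ± 0.17, adjusted p = 0.00243) and to 33.7% with miR-708 (-1.57 ± 0.17, adjusted p = 0.000115). In RPE-1, where it was scarce, the values were 146, 147 and 166 with siNT, 88.3, 119 and 112 with miR-28, and 158, 134 and 146 with miR-708. It fell to 69.4% with miR-28 (-0.53 ± 0.16, adjusted p = 0.0196), while with miR-708 the groups overlapped (-0.06 ± 0.16, adjusted p = 0.747). The RPE-1 call was lost without siNT replicate 3 (adjusted p = 0.0536), without miR-28 replicate 1 (0.0702) and with libraries scaled to the same total (0.0584).

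S100A14, a member with an EF-hand that has lost residues needed for calcium binding, also fell with both mimics in MCF10A. Its values were 22244, 19837 and 20693 with siNT, 11451, 8682 and 8939 with miR-28, and 11944, 7323 and 5610 with miR-708. All 6 mimic libraries lay below all siNT libraries, with a wide spread under miR-708. The gene fell to 46.0% (log2 fold change -1.12 ± 0.22, adjusted p = 0.00543) and to 37.7% (-1.41 ± 0.22, adjusted p = 0.000853). It was not listed in RPE-1.

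S100A2 and S100A14 are genes of stratified epithelia, and some markers of the basal breast cell moved with them. Of the 8 markers listed, 3 fell with miR-28 and 4 with miR-708, against 22.7% and 32.8% of all genes called, and none rose, while CDH3, KRT6A and LAMB3 were not called with either mimic. With the replicate block 4 and 5 fell, against 29.9% and 39.5%, adding KRT17 with miR-28 and ITGB4 with miR-708. The summed value of the 8, most of it from KRT5, KRT6A, KRT17 and KRT14, was 207485 to 229948 in the siNT libraries, 148003 to 161685 with miR-28 and 125828 to 144539 with miR-708. KRT14, a basal keratin, fell to a mean of 10943 and 7456 from 35973 (log2 fold changes -1.71 and -2.29, adjusted p = 0.000262 and 1.26e-05). TP63, the basal cell transcription factor, fell by 1.08 and 1.29 on the log2 scale (adjusted p = 0.00461 and 0.000915), and KRT5, the partner of KRT14, fell by 0.46 and 0.91 (adjusted p = 0.0489 and 0.00116). The part of basal identity in the S100 values was not tested.

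S100A11, which binds annexin A1, responded to miR-28 in MCF10A. Its values were 20925, 19820 and 22048 with siNT, 13923, 15094 and 14697 with miR-28, and 20593, 17437 and 18636 with miR-708. The miR-28 libraries stood apart below the other 6, and the miR-708 libraries overlapped siNT. It fell to 69.6% with miR-28 (log2 fold change -0.52 ± 0.11, adjusted p = 0.00625) and stood at 90.1% with miR-708 (-0.15 ± 0.11, adjusted p = 0.306). In RPE-1 it read 4773, 5254 and 4630 with siNT, 3557, 4764 and 3903 with miR-28, and 4862, 4671 and 4595 with miR-708. There miR-28 gave -0.27 ± 0.11 (adjusted p = 0.0599) and miR-708 -0.05 ± 0.11 (adjusted p = 0.698), neither of them called. Without miR-28 replicate 2 the first of these was called (-0.39, adjusted p = 0.00591). The annotation holds 8 pseudogenes of S100A11, none of them listed in either table, so reads shared with them may have been assigned to S100A11.

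S100A10, the calcium-independent partner of annexin A2, read 24093, 20302 and 22135 with siNT in MCF10A, 17994, 17605 and 18138 with miR-28, and 24468, 17503 and 19265 with miR-708. The miR-28 libraries all lay below siNT, but the change did not pass the test (log2 fold change -0.30 ± 0.13, adjusted p = 0.123, or 0.0423 without miR-708 replicate 7, a library that enters through the shared spread), nor did that of miR-708 (-0.13 ± 0.13, adjusted p = 0.490). In RPE-1 the values were 5185, 5507 and 4247 with siNT, 3687, 5126 and 4403 with miR-28, and 3871, 3363 and 3812 with miR-708. It fell to 74.3% with miR-708 (-0.43 ± 0.13, adjusted p = 0.0165) and stood at 88.2% with miR-28 (adjusted p = 0.290). The RPE-1 call was lost without siNT replicate 1 (adjusted p = 0.0566), siNT replicate 2 (0.0678) or miR-708 replicate 2 (0.0631), and with equal library totals the value was -0.11 (adjusted p = 0.514).

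**Figure D3:**
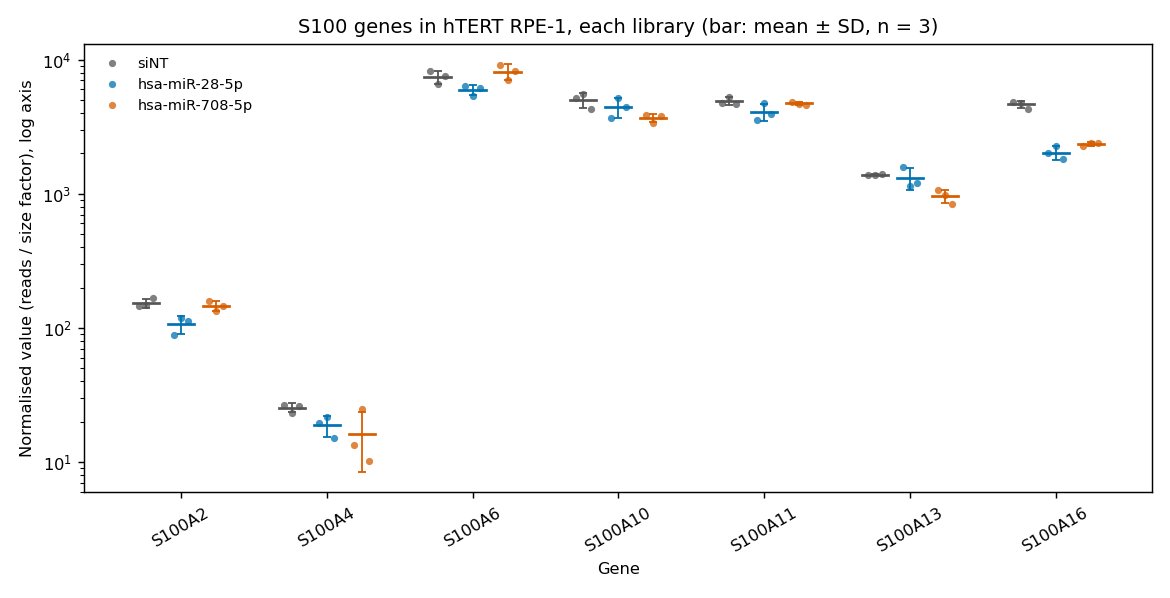
Normalized value of each of the 7 S100 genes listed in hTERT RPE-1, in the 9 libraries on a log axis, colored by group, with the mean ± SD of 3 libraries. S100A16 is lower in all mimic libraries than in siNT, and S100A2 and S100A4 lie far below the other 5 genes.

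S100A6, or calcyclin, is the member that binds the ubiquitin ligase adaptor CACYBP. It read 25291, 31137 and 28700 with siNT in MCF10A, 28996, 36649 and 43976 with miR-28, and 37007, 34987 and 39616 with miR-708. All miR-708 libraries exceeded all siNT libraries, yet the change was not called (log2 fold change 0.39 ± 0.16, adjusted p = 0.0811), and that of miR-28 was 0.35 ± 0.16 (adjusted p = 0.139). With the replicate number as a block, which pairs the MCF10A libraries, miR-708 gave the same 0.39 with an adjusted p of 0.0404, past the threshold. Leaving out miR-28 replicate 7 also brought both changes past it (0.51 and 0.39, adjusted p = 0.0295 and 0.0324). In RPE-1 it read 8209, 6580 and 7528 with siNT, 6395, 5346 and 6126 with miR-28, and 9172, 7012 and 8178 with miR-708. The miR-28 libraries lay below siNT without being called (-0.32 ± 0.12, adjusted p = 0.0527) and those of miR-708 overlapped it (0.12 ± 0.12, adjusted p = 0.398). The miR-28 change was called without siNT replicate 2, miR-28 replicate 1, or miR-708 replicate 1 or 2 (-0.40 to -0.32, adjusted p = 0.0360 to 0.0480). With equal library totals the miR-708 value was 0.44 (adjusted p = 0.00987).

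S100A4, which binds non-muscle myosin IIA, read 735, 1212 and 907 with siNT in MCF10A, 686, 927 and 954 with miR-28, and 623, 552 and 612 with miR-708. It fell to 63.9% with miR-708, whose libraries were all below siNT (log2 fold change -0.65 ± 0.18, adjusted p = 0.0176), and stood at 90.9% with miR-28 (adjusted p = 0.611). The call was lost without siNT replicate 8 (adjusted p = 0.0676) or miR-708 replicate 8 (0.0632). In RPE-1 the gene was near the lower limit, with 26.8, 23.3 and 26.4 in siNT, 19.6, 21.5 and 15.1 with miR-28, and 13.3, 24.7 and 10.2 with miR-708. The miR-28 libraries lay below siNT and the miR-708 libraries overlapped it. Neither change was called (-0.43 ± 0.34 and -0.72 ± 0.34, adjusted p = 0.325 and 0.0908), although without miR-708 replicate 2 the second was (-1.06, adjusted p = 0.0189).

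S100A13, known for carrying FGF1 and interleukin 1 alpha out of cells, read 1237, 1664 and 1516 with siNT in MCF10A, 1146, 1642 and 1871 with miR-28, and 1531, 1701 and 1776 with miR-708. The groups overlapped, and neither change was called (log2 fold changes 0.06 ± 0.17 and 0.19 ± 0.17, adjusted p = 0.833 and 0.420). In RPE-1 it read 1388, 1373 and 1403 with siNT, 1577, 1136 and 1194 with miR-28, and 1061, 977 and 842 with miR-708. It fell to 68.9% with miR-708 (-0.54 ± 0.13, adjusted p = 0.00413) and stood at 92.8% with miR-28 (adjusted p = 0.521). With equal library totals the miR-708 value was -0.22 and not called (adjusted p = 0.139). S100A13 shares 225 exonic bases with a long noncoding gene on the same strand (ENSG00000271853), which is not listed, so some of its reads may belong there.

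**Figure D4:**
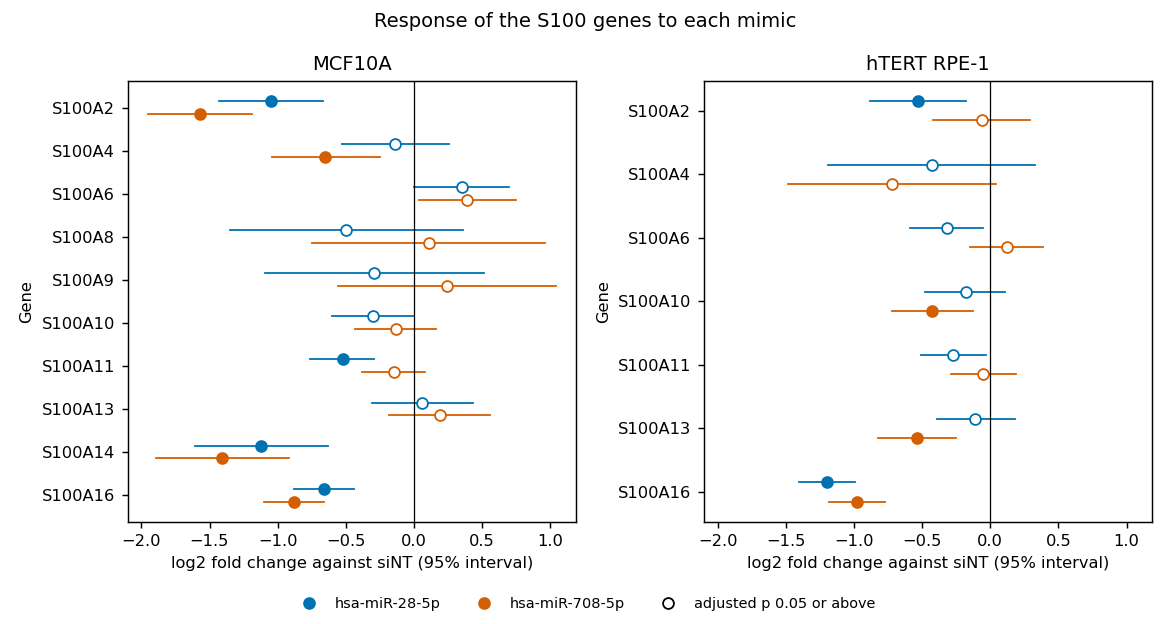
Log2 fold change of each S100 gene against siNT with its 95% interval, for miR-28 and miR-708 in MCF10A and hTERT RPE-1, where filled points passed the test. S100A16 is filled in all 4 positions and S100A6 has no filled point.

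The calprotectin genes S100A8 and S100A9 varied more between replicates than between groups. S100A8 read 14256, 40471 and 17147 in siNT replicates 7, 8 and 9, then 9179, 20758 and 18428 with miR-28, and 16305, 27690 and 27337 with miR-708. S100A9 read 24009, 59413 and 25158 with siNT, 17562, 36188 and 31008 with miR-28, and 27589, 50657 and 42308 with miR-708. Replicate 8 was the highest and replicate 7 the lowest of each group for both genes. Neither change was called for S100A8 (log2 fold changes -0.50 ± 0.39 and 0.11 ± 0.39, adjusted p = 0.381 and 0.861) or S100A9 (-0.29 ± 0.37 and 0.24 ± 0.37, adjusted p = 0.599 and 0.649). Without siNT replicate 8 the S100A9 value for miR-28 was 0.14 (adjusted p = 0.803). The 95% intervals for miR-708 ran from -0.75 to 0.96 and from -0.56 to 1.04. The replicate block narrowed the standard errors to 0.19 for S100A8 and 0.18 for S100A9, and still called no change. Its adjusted p was 0.0625 and 0.689 for S100A8, and 0.243 and 0.313 for S100A9, for miR-28 and miR-708 in turn.

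Although each gene spanned a wide range, 4.41-fold for S100A8 and 3.38-fold for S100A9, their ratio per kilobase stayed between 0.734 and 0.957 in all 9 libraries. Against the siNT library of the same number, miR-28 gave log2 ratios of -0.64, -0.96 and 0.10 for S100A8 and -0.45, -0.72 and 0.30 for S100A9. With miR-708 they were 0.19, -0.55 and 0.67 for S100A8 and 0.20, -0.23 and 0.75 for S100A9, so the sign was not shared by the 3 pairs with either mimic. S100A8 and S100A9 are also abundant in myeloid cells, and of 8 leukocyte markers PTPRC, TYROBP, LST1, FCER1G and CSF3R were not listed in MCF10A. CD14 was at 188 to 482 and fell with miR-28 (-0.87 ± 0.21, adjusted p = 0.0151), and the summed leukocyte markers were 268 to 500 with siNT, 230 to 252 with miR-28 and 302 to 358 with miR-708. Their part in the calprotectin values was not tested.

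**Figure D5:**
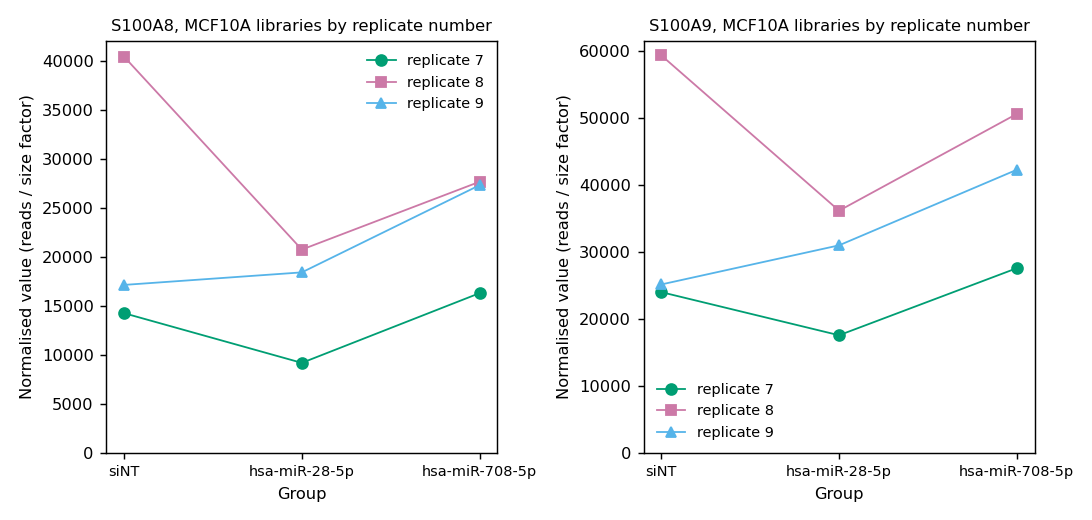
Normalized values of S100A8 and S100A9 in the 9 MCF10A libraries on linear axes that start at 0, with lines joining libraries of the same replicate number. Replicate 8 is highest in every group, and the siNT library of replicate 8 (40471 and 59413) is the highest of all for both genes.

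Of the 12 other S100 family symbols looked for, 7 were listed in MCF10A and 2 in RPE-1. S100A7A, or koebnerisin, read 21.6, 54.7 and 7.32 with siNT, 71.2, 73.1 and 39.5 with miR-28, and 155, 240 and 164 with miR-708. It rose with miR-708 by a log2 fold change of 3.07 ± 0.55 (adjusted p = 0.00182), and with miR-28 the value was 1.46 ± 0.55 (adjusted p = 0.0789), which the replicate block called (adjusted p = 0.0111). Its close relative S100A7, or psoriasin, read 645, 1674 and 457 with siNT, 547, 1147 and 803 with miR-28, and 1050, 1900 and 1698 with miR-708, and was not called without the block (0.92 ± 0.42 with miR-708, adjusted p = 0.109). Against the siNT library of the same number S100A7 was higher with miR-708 in all 3 pairs (log2 ratios 0.70, 0.18 and 1.89), and the block called it (0.92 ± 0.23, adjusted p = 0.00684). The sequences of S100A7 and S100A7A are alike, so reads may have been shared between them. S100A12, or calgranulin C, was higher with miR-708 in the 3 pairs (0.26, 0.73 and 2.43) but was not called, with or without the block (1.14, adjusted p = 0.0620 and 0.129).

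S100P, a ligand of the receptor AGER, read 4420, 2282 and 2329 with siNT, 1902, 1232 and 1026 with miR-28, and 3830, 2071 and 1660 with miR-708. It fell to 46.8% with miR-28 (log2 fold change -1.10 ± 0.33, adjusted p = 0.0350), and the miR-708 libraries overlapped siNT (-0.28 ± 0.33, adjusted p = 0.554). In each pair of the same number S100P was lower with miR-708 than with siNT, and the block called it (-0.28 ± 0.10, adjusted p = 0.0457). S100A3, a hair cuticle member, fell with miR-708 in MCF10A (-1.34 ± 0.33, adjusted p = 0.0103), under the block also with miR-28 (-0.90 ± 0.31, adjusted p = 0.0417), and with both mimics in RPE-1 (-1.18 ± 0.40 and -1.30 ± 0.40, adjusted p = 0.0323 and 0.0154), from mean siNT values of 115 and 35.4. S100PBP, which is no S100 protein but binds S100P, fell in RPE-1 with miR-708 (-0.47 ± 0.09, adjusted p = 0.00122), and with miR-28 the value was -0.18 ± 0.09 (adjusted p = 0.125). S100A1 was at 4.29 to 13.4 in the MCF10A libraries and did not reach the filter.

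The mimics were then compared with each other. In MCF10A limma called none of the 10 members, against 1.55% of all genes, while 4 had an unadjusted p under 0.05. The libraries did not overlap for 2 of 10, S100A4 and S100A11, against 20.0%. The largest of these 4 differences were in S100A2, at -0.52 ± 0.17 (miR-708 minus miR-28, 95% interval -0.91 to -0.14, adjusted p = 0.189), and S100A4, at -0.51 ± 0.18 (-0.90 to -0.12, adjusted p = 0.211). S100A11 was higher in all miR-708 libraries than in any miR-28 library (0.37 ± 0.11, 95% interval 0.14 to 0.61, adjusted p = 0.137), and S100A16 differed by -0.22 ± 0.10 (adjusted p = 0.317). For S100A14 the interval was -0.77 to 0.20. Without miR-708 replicate 7 the S100A2 difference was called (-0.73, adjusted p = 0.0203).

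In RPE-1, 2 of 7 members differed between the mimics, against 21.2% of all genes, and 4 of 7 did not overlap, against 38.7%. S100A6 was higher with miR-708 than with miR-28, without overlap (log2 difference 0.44 ± 0.12, adjusted p = 0.0275). S100A13 was lower with miR-708, also without overlap (-0.43 ± 0.13, adjusted p = 0.0381). The S100A13 call was lost in 9 of 17 alternative settings, with adjusted p up to 0.236, and that of S100A6 in 5, with adjusted p up to 0.101. Leaving out miR-28 replicate 3 or miR-708 replicate 3 left neither gene called. With equal library totals, which moved the share of called genes that were higher from 46.5% to 84.8%, S100A2, S100A6, S100A11 and S100A16 were called higher with miR-708 and S100A13 was not called. Without miR-28 replicate 2 S100A2, S100A11 and S100A16 were called higher with miR-708 (0.55, 0.34 and 0.30, adjusted p = 0.0387, 0.0188 and 0.0280).

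Responses were compared between the lines as the difference of the log2 fold changes, RPE-1 minus MCF10A, for the 7 members tested in both. For miR-28 2 of 7 differed, against 23.4% of the 13339 genes tested in both lines. S100A16 fell further in RPE-1 (difference -0.54 ± 0.14, adjusted p = 0.00794), and S100A6, at 0.35 in MCF10A and -0.32 in RPE-1, differed by -0.67 ± 0.20 (adjusted p = 0.0211). For miR-708 2 of 7 differed, against 39.8%, and equal library totals moved the share of these genes that were higher from 50.8% to 68.4%. S100A2 was at -1.57 in MCF10A and -0.06 in RPE-1 (difference 1.51 ± 0.24, adjusted p = 3.86e-05), and S100A13 at 0.19 and -0.54 (difference -0.73 ± 0.21, adjusted p = 0.00984). The S100A16 response to miR-708 differed by -0.09 ± 0.14 (95% interval -0.38 to 0.19), and that of S100A11 to miR-28 by 0.25 ± 0.15 (-0.06 to 0.57).

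Binding partners and receptors of S100 proteins were counted as a list of 18 genes, 17 of them tested in each line. In MCF10A 3 fell and none rose with miR-28, and 3 rose and 3 fell with miR-708. In RPE-1 3 rose and 5 fell with miR-28, and 6 rose and 5 fell with miR-708. The shares of all genes called were 22.7% and 32.8% in MCF10A and 46.8% and 62.1% in RPE-1, in the same order, and the list's counts lay near them. The list medians were -0.03 and 0.15 in MCF10A and 0.10 and 0.07 in RPE-1. AHNAK, a giant scaffold protein that binds the S100A10 complex, fell in all 4 comparisons, most in RPE-1 with miR-708 (from a mean of 99165 to 22606, log2 fold change -2.15 ± 0.14, adjusted p = 6.46e-07). TLR4, a receptor for calprotectin, rose in RPE-1 with both mimics (1.22 and 1.25, adjusted p = 1.79e-05 and 6.42e-06) and in MCF10A with miR-708 from a low level (31.6 to 84.4, adjusted p = 0.00836). With the replicate block TLR4 was also called higher with miR-28 in MCF10A (0.82 ± 0.27, adjusted p = 0.0343). IL1A, the cargo of S100A13, rose with miR-708 in MCF10A (2569 to 4725, adjusted p = 0.00150) and in RPE-1 (15.8 to 165, adjusted p = 0.000166). MYH9, the myosin bound by S100A4, fell in RPE-1 with miR-708 to a mean of 70174 from 211950 (-1.60 ± 0.20, adjusted p = 5.38e-05).

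Of 11 annexins tested in each line, 1 rose and 2 fell with miR-28 in MCF10A, and 2 rose and 2 fell with miR-708. In RPE-1 2 rose and 3 fell, and 3 rose and 5 fell, in the same order. These counts too lay near the shares of all genes called, 22.7% and 32.8% in MCF10A and 46.8% and 62.1% in RPE-1. ANXA2, the partner of S100A10, fell in RPE-1 from a mean of 79671 to 58330 with miR-28 and to 42321 with miR-708 (log2 fold changes -0.46 and -0.92, adjusted p = 0.0230 and 0.000249). ANXA1, the partner of S100A11, rose there with both (0.62 and 0.78, adjusted p = 0.000734 and 8.15e-05). ANXA3 and ANXA6 fell in RPE-1 with both mimics (log2 fold changes -1.75 and -1.35 with miR-708), and ANXA4 rose in all 4 comparisons, by 0.37 to 0.65. ANXA8 and ANXA8L1 fell in MCF10A with both mimics, but they are near-identical copies whose reads cannot be separated with confidence.

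Other EF-hand proteins were counted over 30 genes tested in MCF10A and 29 in RPE-1. With miR-28 2 rose and 3 fell in MCF10A, and 2 rose and 10 fell in RPE-1. With miR-708 5 rose and 6 fell in MCF10A, and 7 rose and 14 fell in RPE-1. Most of these counts lay near or below the shares of all genes called, 22.7% and 46.8% for miR-28 and 32.8% and 62.1% for miR-708. With the replicate block 3 rose and 5 fell with miR-28 in MCF10A, against 29.9% of all genes, and 6 rose and 7 fell with miR-708, against 39.5%. GCA, or grancalcin, rose in all 4 comparisons, most with miR-708 in MCF10A (12.6 to 261, log2 fold change 4.34 ± 0.37, adjusted p = 2.14e-05). CIB1, a calcium- and integrin-binding protein, fell in all 4 comparisons (log2 fold changes -0.84 and -0.80 in MCF10A, adjusted p = 0.00111 and 0.000660), and CAPNS1, the small calpain subunit, fell to a mean of 2842 from 9706 in RPE-1 with miR-708 (adjusted p = 2.22e-07).

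Genes of the epidermal differentiation complex, the neighbors of the S100 cluster, were tested in MCF10A, where 12 of 26 passed the filter. With miR-28 2 rose and 3 fell, against 22.7% of all genes called in either direction, and with miR-708 3 rose and 3 fell, against 32.8%. With the replicate block 4 rose and 3 fell with miR-28, against 29.9%, and 3 rose and 3 fell with miR-708, against 39.5%. With 12 genes tested, these counts are not read as a result about the list. The small proline-rich genes, which encode cross-linked proteins of the cell envelope, moved in both directions. SPRR3 fell from a mean of 767 to 142 and 166 (log2 fold changes -2.49 and -2.27, adjusted p = 0.000723 and 0.000519), and SPRR1B and SPRR1A fell with both mimics. SPRR2E rose with miR-708 from 99.7 to 516 (2.38 ± 0.29, adjusted p = 0.000191) and was called with miR-28 under the replicate block only (0.80 ± 0.17, adjusted p = 0.00373). SPRR2D rose with miR-708 (1.57 ± 0.28, adjusted p = 0.00158). With miR-28 its groups overlapped and the call was at the threshold (0.83 ± 0.28, adjusted p = 0.0499, or 0.000157 with the block). The SPRR2 genes are similar enough to share reads.

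Interferon-stimulated genes, which cells switch on when they sense foreign RNA, rose in the same libraries. In MCF10A 8 of 15 rose and 1 fell with miR-28 (median log2 fold change 0.69), against 22.7% of all genes called. With miR-708 all 15 rose (median 6.50), against 32.8%. With the replicate block 9 rose and 2 fell with miR-28, the latter OAS1 and OAS3 (adjusted p = 0.00421 and 0.0330). In RPE-1 all 13 rose with each mimic (medians 5.73 and 7.02), against 46.8% and 62.1% of all genes called. Some of these genes were near the lower limit with siNT. Mean siNT values were 5.445 for OAS1, 4.47 for OAS2 and 3.955 for IFI27 in RPE-1, and 8.34 for MX1 in MCF10A. Such genes passed the filter through the mimic libraries, so a call of higher was largely fixed in advance. The size of their rise depends on the lower limit. IFI6 went from a mean of 25.6 to 197 and 16119 in MCF10A. Between the mimics, all 15 were called higher with miR-708 in MCF10A, against 1.55% of all genes called. In RPE-1 none of the 13 was called, against 21.2%. The median difference of these 13 was still 1.40 (miR-708 minus miR-28), so the absence of calls does not show equal levels. The part of this response in the S100 values was not tested.

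The gene whose pattern over the 9 libraries of a line was nearest to each member was found among genes with a mean of at least 50, as the mean absolute difference of log2 values centered on siNT. S100A8 was nearest to S100A9 (0.144) of 12329 genes in MCF10A, and S100A9 was nearest to SLC39A8 (0.135), a metal transporter, with S100A8 next. For S100A2 the nearest gene was CDCA7L (0.094) and S100A14 was the nearest member (0.132, place 6). S100A14 was nearest to TBC1D4 (0.096), S100A11 to NUP37 (0.064), S100A16 to SCAF4 (0.049), S100A6 to CMBL (0.045), S100A10 to PAIP1 (0.051), S100A13 to RARA (0.057) and S100A4 to LRIG1 (0.113). In RPE-1 the nearest genes were PIK3CD for S100A16 (0.074), G3BP1 for S100A2 (0.082), FH for S100A6 (0.073), LLGL1 for S100A10 (0.069), ZCCHC9 for S100A11 (0.041), PAPSS1 for S100A13 (0.058) and NDUFC2-KCTD14 for S100A4 (0.143). None of the members had the same nearest gene in both lines. For S100A4, S100A6, S100A10, S100A11, S100A13 and S100A16 in MCF10A, the nearest other member stood much lower. Its place ran from 349 for S100A11 to 3440 for S100A4. In RPE-1 the nearest other member stood at place 162 for S100A2 and lower for the rest, down to 3266 for S100A16.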

How the data were processed

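PolyA+ RNAseq values were deposited by the authors as 1 table per cell line, holding 9 libraries each. Per the file headers and the methods, the deposited signal is an estimated number of reads per gene over a size factor from the median of ratios (HISAT2 2.1.0 on hg38, Partek quantification on RefSeq Transcripts 93). The authors tested these with DESeq2. Of low values, 81.3% to 86.8% were whole reads within 0.02 read after undoing the size factor, so counts were not recovered and a count test was not used. The authors' comparison files were not used.

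Genes that reached 10 in 3 or more of the 9 libraries (14726 in MCF10A, 14527 in RPE-1) were tested with limma 3.58.1 (R 4.3.3) on log2(value + 1), with 3 group means, a trended spread and Benjamini-Hochberg adjustment over all genes. A fold change on this scale understates the change of low genes. Differences between the lines used standard errors combined from both fits. Replicates are called biological by the study, and depth was estimated from the smallest step between values. The members and lists were chosen with earlier results of these data known. Named genes were the members, the other S100 genes listed, the nearest pattern to each member, and at most 3 called genes a direction for each list and comparison with siNT, with a mean of at least 50. A few of these are given only by direction.

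Same-numbered libraries deviated together in MCF10A for miR-28 against siNT (correlations of deviations 0.26, 0.18 and 0.11) and for miR-708 against siNT (0.30, 0.11 and 0.16), and in RPE-1 for the mimics against each other (0.28, 0.20 and 0.13). The replicate number was read as a pairing there, but the main fits and their shares of all genes did not include it. It entered only as the replicate block. Differently numbered libraries gave correlations of -0.20 to 0.11, -0.20 to 0.07 and -0.27 to 0.05 in these comparisons, in turn. In MCF10A, miR-28 replicate 9 correlated at 0.11 with siNT replicate 8 as well as with siNT replicate 9. The pairing of that library is therefore not shown by these values. With the block, 29.9% of all genes were called with miR-28 and 39.5% with miR-708 against siNT in MCF10A, and 22.8% between the mimics in RPE-1. Alternatives were other pseudocounts (0.5 and 5), no filter, other scalings (equal totals or upper quartiles), the replicate block, no trend, only the 6 libraries compared, each library left out, and for the line differences a joint fit of 18 libraries. The scripts were tested on simulated data.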

Additional observations from a re-analysis of the deposited data

Results flagged for a closer look

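The response of 4 members differed between the lines by the test of the difference itself (RPE-1 minus MCF10A, log2 scale). These were 2 of 7 with each mimic, against 23.4% of all genes with miR-28 and 39.8% with miR-708, so the count is near or below the share of all genes. With miR-28 they were S100A16 (-0.54 ± 0.14, adjusted p = 0.00794) and S100A6 (-0.67 ± 0.20, adjusted p = 0.0211). With miR-708 they were S100A2 (1.51 ± 0.24, adjusted p = 3.86e-05) and S100A13 (-0.73 ± 0.21, adjusted p = 0.00984). The differences of S100A16, S100A2 and S100A13 were called in all 27 alternatives, and that of S100A6 in 23. The S100A6 difference was not called without MCF10A siNT replicate 7 (-0.59, adjusted p = 0.0690), miR-28 replicate 8 (-0.66, 0.0528) or replicate 9 (-0.52, 0.0759), or without RPE-1 siNT replicate 1 (-0.59, 0.0529).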

How the results depend on the processing

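Values are the number of members called, or a member's log2 fold change. With a replicate block, miR-28 in RPE-1 lowered 4 members in place of 2, adding S100A6 (adjusted p = 0.00701) and S100A11 (0.0437), where the deviations of same-numbered libraries correlated at 0.02 to 0.04 and the numbers were not taken as pairs. In MCF10A, where the numbers pair, it added S100A6 for miR-708, and it changed no other call of a member in any comparison. With equal library totals miR-28 lowered 1 member in RPE-1, and 4 members were higher with miR-708 than with miR-28. That last comparison called 1 member without the trend or with only the 6 libraries compared. Over single libraries left out, members called ranged from 0 to 1 between the mimics in MCF10A, 1 to 3 for miR-28 in RPE-1, 0 to 4 between the mimics in RPE-1 and 1 to 2 for the miR-28 line difference.

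Reversals occurred only in uncalled values. For miR-28 against siNT in MCF10A, leaving out libraries gave -0.31 to 0.052 for S100A4, -0.52 to 0.14 for S100A9 and -0.091 to 0.26 for S100A13. For miR-708 it gave -0.19 to 0.56 for S100A8, and S100A10 was 0.013 with equal totals. Between the mimics in MCF10A S100A6 ran from -0.11 to 0.19 and S100A13 from -0.073 to 0.28. In RPE-1 with miR-708, equal totals gave 0.25 for S100A2 and 0.27 for S100A11, which reached 0.0021 without siNT replicate 2 (lowest -0.089). For the miR-708 line difference, S100A4 was 0.053 with a pseudocount of 5, 0.085 with equal totals and -0.41 to 0.18 with libraries left out, and S100A16 was 0.082 with equal totals and -0.16 to 0.0073 with libraries left out. The cause was not tested. Of the 1245 values of single members under an alternative, 1170 kept their direction and side of the threshold.

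With 3 libraries a group, S100A8, S100A9 and the low S100A4 of RPE-1 had standard errors of 0.34 to 0.39 without the block. The 95% intervals were wide, from -1.35 to 0.36 for S100A8 with miR-28 in MCF10A. For S100A4 with miR-708 in RPE-1 the interval ran from -1.48 to 0.04. Changes well above a standard error could therefore go uncalled in that fit. With the replicate block the standard errors of S100A8 and S100A9 against siNT were 0.19 and 0.18, and neither gene was called.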
